A study of Homo sapiens with 16 samples.

Results

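The extrinsic arm of apoptosis was followed through 10 genes, taken by symbol from the table of 25369 genes and not by their values. They were the death receptors FAS, TNFRSF10A, TNFRSF10B and TNFRSF1A, the decoy receptors TNFRSF10C and TNFRSF10D, the adapter FADD, the initiator caspases CASP8 and CASP10, and CFLAR. All 10 were tested in TPC1 cells and 9 in K1 cells, where TNFRSF10C was too low.

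In this pathway a ligand such as FAS ligand or TRAIL (TNFSF10) binds a death receptor at the cell surface, and the receptor's death domain gathers FADD, which in turn gathers procaspase-8 and procaspase-10. The caspases activate each other in this complex and go on to cut the executioner caspases or BID, which passes the signal to mitochondria. CFLAR encodes c-FLIP, a caspase-8 relative that controls this step, and decoy receptors bind TRAIL without passing on a death signal. FAS and TNFRSF10B are textbook p53 targets, and TNFRSF10B is also known as a target of DDIT3 (CHOP), a transcription factor of the integrated stress response.

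TPC1 and K1 are established cell lines labelled as papillary thyroid carcinoma, so each line is 1 genetic background. The study's methods give RPMI medium for TPC1 and DMEM for K1. In every comparison between the lines, the line, its medium and its set of libraries therefore cannot be told apart. Cultures of each received for 24 h either 0.2% DMSO as vehicle, nutlin-3a at 10 µM (an MDM2 inhibitor that stabilises p53), GSK2830371 at 25 µM (an inhibitor of PPM1D, a phosphatase that restrains p53), or both compounds together, called the combination here. Poly-A RNA of 2 libraries per line and treatment was sequenced, 16 libraries in all. The study's reporting summary describes replicates as biological and independently made, and the labels do not say so for each library, so p-values measure the spread between these libraries.

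TPC1 libraries held 30789887 to 76648552 counts, and K1 libraries held 28888686 to 37161241. In TPC1 the libraries in the columns numbered 3 held 62853375 to 76648552 counts and those numbered 1 held 30789887 to 36896529. Of the thyroid markers, NKX2-1 and TSHR stayed below 1 CPM (read counts per 1000000 reads of the library) in both lines while PAX8 and FOXE1 were present, and of 6 epithelial markers CDH1, EPCAM and KRT19 stayed below 1 CPM. The summed level of 6 immune markers was 0 to 0.403 CPM in TPC1 and 2.3 to 4.59 CPM in K1, where CD14 was the one immune marker above 1 CPM. The values are shares of the RNA of a whole culture, so fewer cells of a kind and less RNA per cell cannot be told apart.

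Gene clusters on chromosomes 2 and 8 held 7 of the 10 genes (GRCh37). TNFRSF10B, TNFRSF10C, TNFRSF10D and TNFRSF10A follow each other on chromosome 8 between 22877646 and 23082615, and CFLAR, CASP10 and CASP8 on chromosome 2 between 201980877 and 202226559. FAS lies at 90750414 to 90775542 on chromosome 10, FADD at 70049402 to 70053496 on chromosome 11 and TNFRSF1A at 6437923 to 6451280 on chromosome 12. FAS overlaps ACTA2, TNFRSF10B overlaps RHOBTB2 and CFLAR overlaps CFLAR-AS1 on the opposite strand, and counting used strand.

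Levels in CPM are scaled within each line by TMM factors, and levels per kb are not. A gene was called when edgeR's quasi-likelihood test gave a Benjamini-Hochberg adjusted p below 0.05 over all genes tested in that fit and the fold change exceeded 1.5, which is 0.585 on the log2 scale. Differences are log2 fold changes ± SE, with 2 libraries per group. The comparisons with DMSO share the same DMSO libraries.

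The windows from 1000 bases before to 2000 bases after each start site were scanned for the p53 response element, formed of 2 half-sites of 10 bases without a spacer, on both strands, with up to 2 mismatches and both half-site cores intact. FAS and TNFRSF10B held a match, in 2 of the 10 windows, and 195 of 17826 windows of all genes scanned (1.09%) did. The TNFRSF10B match lay in intron 1, 390 bases downstream of the start site. The FAS match lay in intron 1 too, 652 bases downstream, at 90751066 to 90751085, with 2 mismatches. Genes without a match rose under nutlin too. In TPC1 the log2 fold changes of TNFRSF10D (2.06) and CASP10 (2.02) exceeded that of TNFRSF10B (1.33). In K1 that of TNFRSF10A (1.66) exceeded that of FAS (1.18). Whether a match goes with the size of a response was not tested. FAS had the largest response to nutlin among the 10 genes in TPC1. Only its match is shown, at chr10:90751016-90751135 on the plus strand, with the matched element in capitals:
FAS intron 1: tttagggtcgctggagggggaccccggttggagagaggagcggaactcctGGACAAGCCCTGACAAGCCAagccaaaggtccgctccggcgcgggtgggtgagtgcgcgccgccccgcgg
A match in letters is a description and not a measured binding site.

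In vehicle the lines differed in the order of their receptor levels. Per kb of transcript (CPM from library totals alone, without TMM factors, divided by the length of the canonical transcript), TPC1 held in its 2 DMSO libraries 108 and 119 of TNFRSF1A, 71.5 and 68.3 of TNFRSF10B, 19 and 18.7 of the decoy TNFRSF10D, 13.2 and 10.5 of TNFRSF10A, and 7.5 and 8.13 of FAS. In K1 the decoy came first, with 83.7 and 87.2 CPM per kb, followed by 81.6 and 76.8 of TNFRSF1A, 32.5 and 31.5 of TNFRSF10B, 17.7 and 17.3 of FAS, and 2.19 and 2.11 of TNFRSF10A. No 2 neighbours in either order overlapped, but the gap between TNFRSF10D and TNFRSF1A in K1 was smaller than the spread of either gene, and that between TNFRSF10A and FAS in TPC1 was smaller than the spread of TNFRSF10A.

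In a joint fit of all 16 libraries, 5 of the 10 genes were called between the DMSO groups of the lines, where 46.2% of 16738 genes were. FAS was higher in K1 by 1.16 ± 0.102 on the log2 scale (adjusted p = 3.3e-08, edgeR quasi-likelihood with Benjamini-Hochberg, as for every adjusted p of this paragraph) and TNFRSF10D by 2.18 ± 0.0706 (adjusted p = 1.1e-13). TNFRSF10A was lower in K1, with a log2 difference of -2.46 ± 0.115 (adjusted p = 9.7e-12), and so was TNFRSF10B, with -1.13 ± 0.0661 (adjusted p = 1.7e-10). The fifth, TNFRSF10C, rests on 0 and 1 reads in K1 and on 2 and 10 reads in TPC1, and its call was lost without K1 DMSO replicate 1 (adjusted p = 0.2) or without the TPC1 DMSO library numbered 3 (adjusted p = 0.36). TNFRSF1A, with -0.53 ± 0.0833 (adjusted p = 3.1e-05), and CASP10, with 0.52 ± 0.118 (adjusted p = 9.3e-04), passed the adjusted p but not the fold threshold. FADD, CASP8 and CFLAR were not called either, with log2 differences of 0.16, -0.12 and -0.11.

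**Figure D1:**
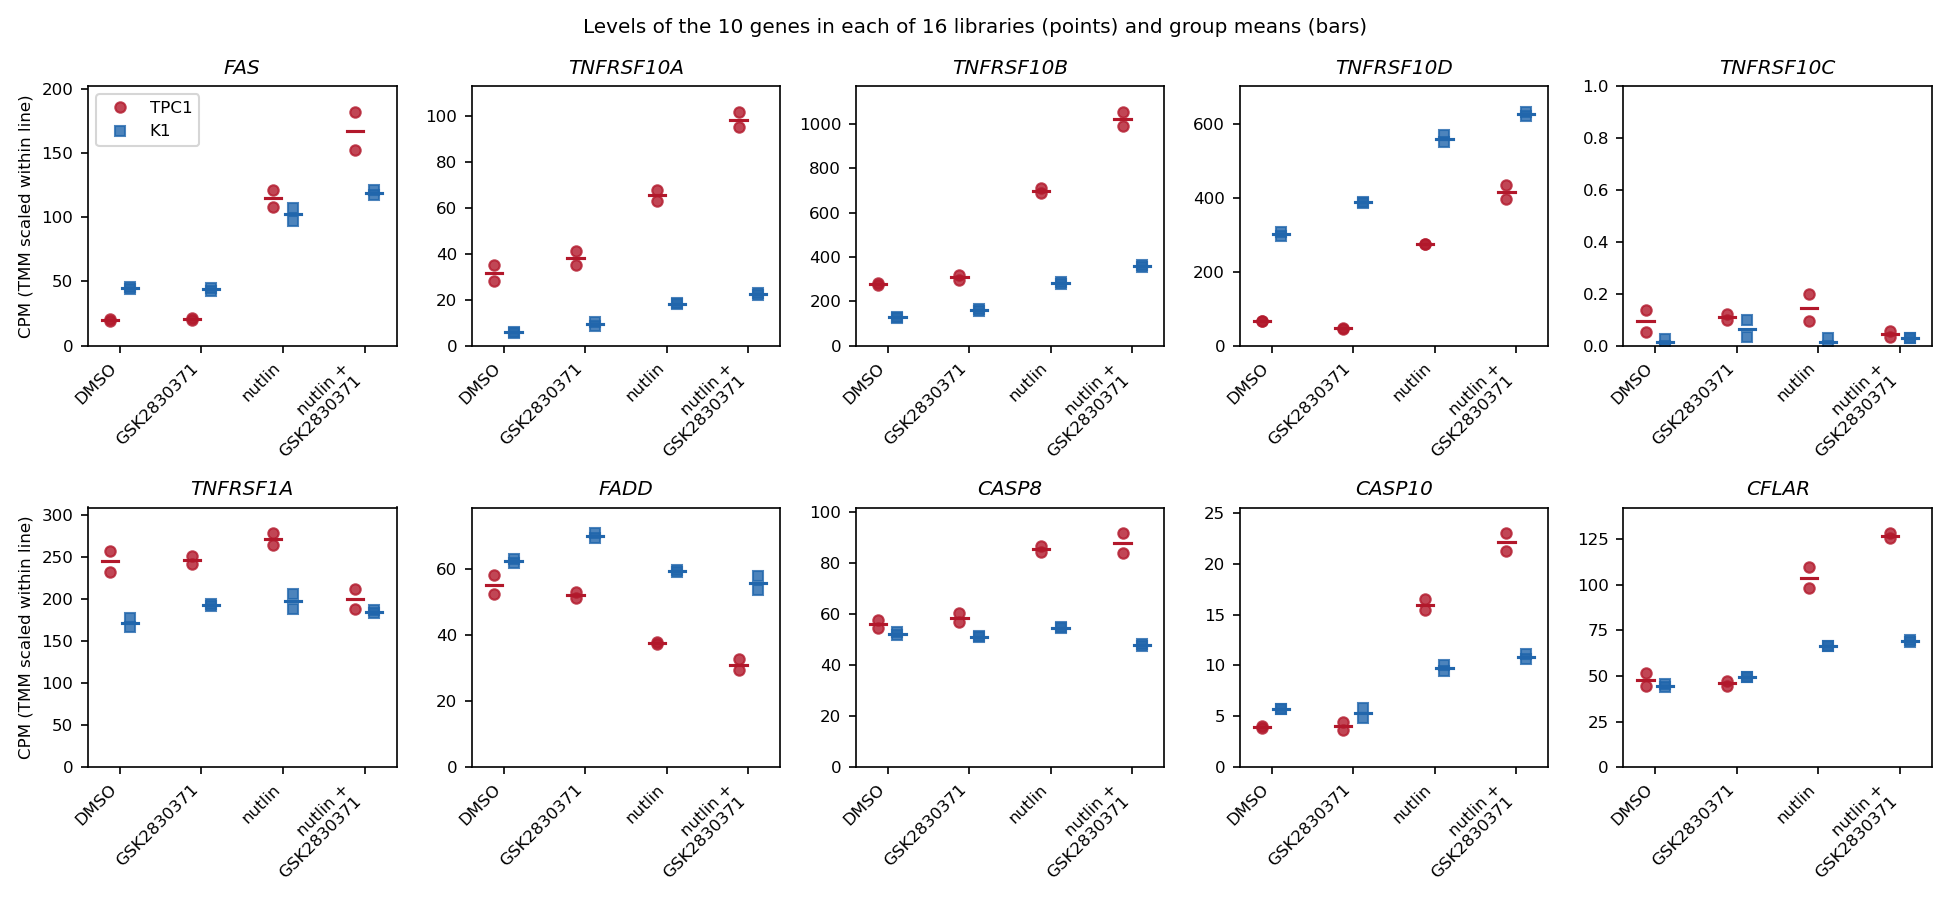
Level of each of the 10 genes (vertical axis, CPM scaled within each line) in every library (points; red circles TPC1, blue squares K1) under the 4 treatments, with group means as short bars. FAS in TPC1 went from 19.03 and 20.8 CPM in DMSO to 152 and 182 CPM in the combination, while TNFRSF1A stayed between 167 and 278 CPM in all 16 libraries.

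Nutlin raised the receptors FAS, TNFRSF10A, TNFRSF10B and TNFRSF10D and the caspase gene CASP10 in both lines. In TPC1, 7 of 10 genes were called higher and none lower, where 17.5% of 15273 genes were called higher and 18% lower. In K1, 5 of 9 were called higher and none lower, where 3.84% of 15900 genes were called higher and 5.43% lower. The 5 genes called in K1 were all among the 7 of TPC1, which added CASP8 and CFLAR. The tested genes had a median log2 fold change of 1.08 for TPC1 and 0.77 for K1, and that of all genes was near 0 (-0.00185 in TPC1).

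FAS, the receptor of FAS ligand, had the largest change under nutlin in TPC1 among the 10. Its TPC1 levels were 19.03 and 20.8 CPM in DMSO and 108 and 122 CPM in nutlin, a log2 fold change of 2.53 ± 0.114 (edgeR quasi-likelihood, Benjamini-Hochberg adjusted p = 1.8e-07). In K1 they were 45.6 and 44.4 CPM in DMSO and 108 and 97.3 CPM in nutlin, a log2 fold change of 1.18 ± 0.0626 (adjusted p = 1.1e-08). The groups did not overlap in either line, and the lines, which started apart, came to similar levels under nutlin. The response was smaller in K1 by 1.37 ± 0.14 on the log2 scale in the joint fit (K1 minus TPC1 -1.37, adjusted p = 1.7e-06).

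TNFRSF10B, the TRAIL receptor also called DR5, was the most abundant TRAIL receptor in TPC1. It rose there from 283 and 273 CPM to 712 and 687 CPM under nutlin, a log2 fold change of 1.33 ± 0.0791 (edgeR quasi-likelihood, Benjamini-Hochberg adjusted p = 1e-06). In K1 it rose from 131 and 126 CPM to 277 and 286 CPM, a log2 fold change of 1.13 ± 0.0516 (adjusted p = 2.4e-09). Both changes were far larger than the gap between libraries of a group, and the difference between the lines, -0.23 ± 0.0921, was not called (adjusted p = 0.067).

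TNFRSF10A, the other signalling TRAIL receptor (DR4), had its larger fold change in K1, where it was scarce. K1 held 5.90 and 5.69 CPM in DMSO and 18.4 and 18.1 CPM in nutlin, a log2 fold change of 1.66 ± 0.0996 (edgeR quasi-likelihood, Benjamini-Hochberg adjusted p = 3.7e-08). TPC1 held 35.3 and 28.2 CPM in DMSO and 67.9 and 63.2 CPM in nutlin, a log2 fold change of 1.05 ± 0.123 (adjusted p = 8.2e-05). The groups did not overlap in either line. The difference between the responses, 0.57 ± 0.154 higher in K1, had an adjusted p of 0.0099 and stayed just under the fold threshold; it passed with DESeq2 (0.59, adjusted p = 0.0053).

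TNFRSF10D, the decoy receptor DcR2, rose along with the signalling receptors. In TPC1 it went from 66.6 and 65.9 CPM to 277 and 275 CPM under nutlin, a log2 fold change of 2.06 ± 0.0762 (edgeR quasi-likelihood, Benjamini-Hochberg adjusted p = 4.7e-08). In K1 it went from 297 and 309 CPM to 552 and 570 CPM, a log2 fold change of 0.89 ± 0.0497 (adjusted p = 1.8e-08). The K1 minus TPC1 difference in response was -1.20 ± 0.0957 (adjusted p = 1.2e-07). With each line scaled on its own, the K1 DMSO libraries stood above the TPC1 nutlin libraries. The other decoy, TNFRSF10C (DcR1), gave 2 to 10 reads per library in TPC1 and 0 to 3 in K1 over all treatments, so no fold change is given, and a change in it was not detectable at this depth.

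TNFRSF1A, the main TNF receptor, did not follow the other receptors. In TPC1 it was at 233 and 258 CPM in DMSO and 265 and 278 CPM in nutlin, a log2 fold change of 0.15 ± 0.0872 (edgeR quasi-likelihood, Benjamini-Hochberg adjusted p = 0.18). In K1 it was at 178 and 167 CPM in DMSO and 189 and 206 CPM in nutlin, and the log2 fold change of 0.20 ± 0.0565 passed the adjusted p (0.018) but not the fold threshold.

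Below the receptors, the 2 initiator caspases differed in response. CASP10 was low, at 4.05 and 3.86 CPM in TPC1 DMSO, and reached 16.5 and 15.5 CPM in nutlin, a log2 fold change of 2.02 ± 0.115 (edgeR quasi-likelihood, Benjamini-Hochberg adjusted p = 8.1e-07). In K1 it went from 5.73 and 5.74 CPM to 9.50 and 10.1 CPM, a log2 fold change of 0.77 ± 0.113 (adjusted p = 1.5e-04). CASP10 rose less in K1, with a K1 minus TPC1 difference of -1.28 ± 0.158 (adjusted p = 1.3e-05).

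CASP8, the principal initiator caspase of the pathway, changed less than CASP10 in both lines. In TPC1 it stood at 54.7 and 57.8 CPM in DMSO and at 84.5 and 87.0 CPM in nutlin, a log2 fold change of 0.61 ± 0.0804 (edgeR quasi-likelihood, Benjamini-Hochberg adjusted p = 1.8e-04) that lay just past the fold threshold and missed it without the TPC1 DMSO library numbered 1 (0.57) or with library size alone as the scaling (0.575). In K1 it stood at 52.98 and 51.7 CPM in DMSO and at 54.6 and 55.0 CPM in nutlin, with a log2 fold change of 0.07 ± 0.0563 (adjusted p = 0.43). The TPC1 groups did not overlap, and the K1 nutlin libraries lay just above both K1 DMSO libraries.

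CFLAR, whose product c-FLIP regulates caspase-8 activation, rose in TPC1 from 51.6 and 44.3 CPM to 110 and 98.2 CPM, a log2 fold change of 1.12 ± 0.0969 (edgeR quasi-likelihood, Benjamini-Hochberg adjusted p = 1.2e-05). In K1 it was at 43.7 and 45.6 CPM in DMSO and at 66.5 and 66.6 CPM in nutlin, and the log2 fold change of 0.58 ± 0.0562 (adjusted p = 3.8e-06) stopped just short of the fold threshold. It was called there by DESeq2 (0.585) and without K1 DMSO replicate 2 (0.61).

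FADD, the adapter, was the one gene of the set, TNFRSF10C aside, whose levels were lower under nutlin in both lines. Its TPC1 levels were 52.5 and 58.2 CPM in DMSO and 37.2 and 38.0 CPM in nutlin, a log2 fold change of -0.56 ± 0.0879 (edgeR quasi-likelihood, Benjamini-Hochberg adjusted p = 5.4e-04) that was not called because of its size. It passed the fold threshold without the TPC1 DMSO library numbered 1 (-0.63) or with library size alone as the scaling (-0.59). In K1 the levels were 63.0 and 62.0 CPM in DMSO and 59.2 and 59.8 CPM in nutlin, a log2 fold change of -0.07 ± 0.0582 (adjusted p = 0.41).

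**Figure D2:**
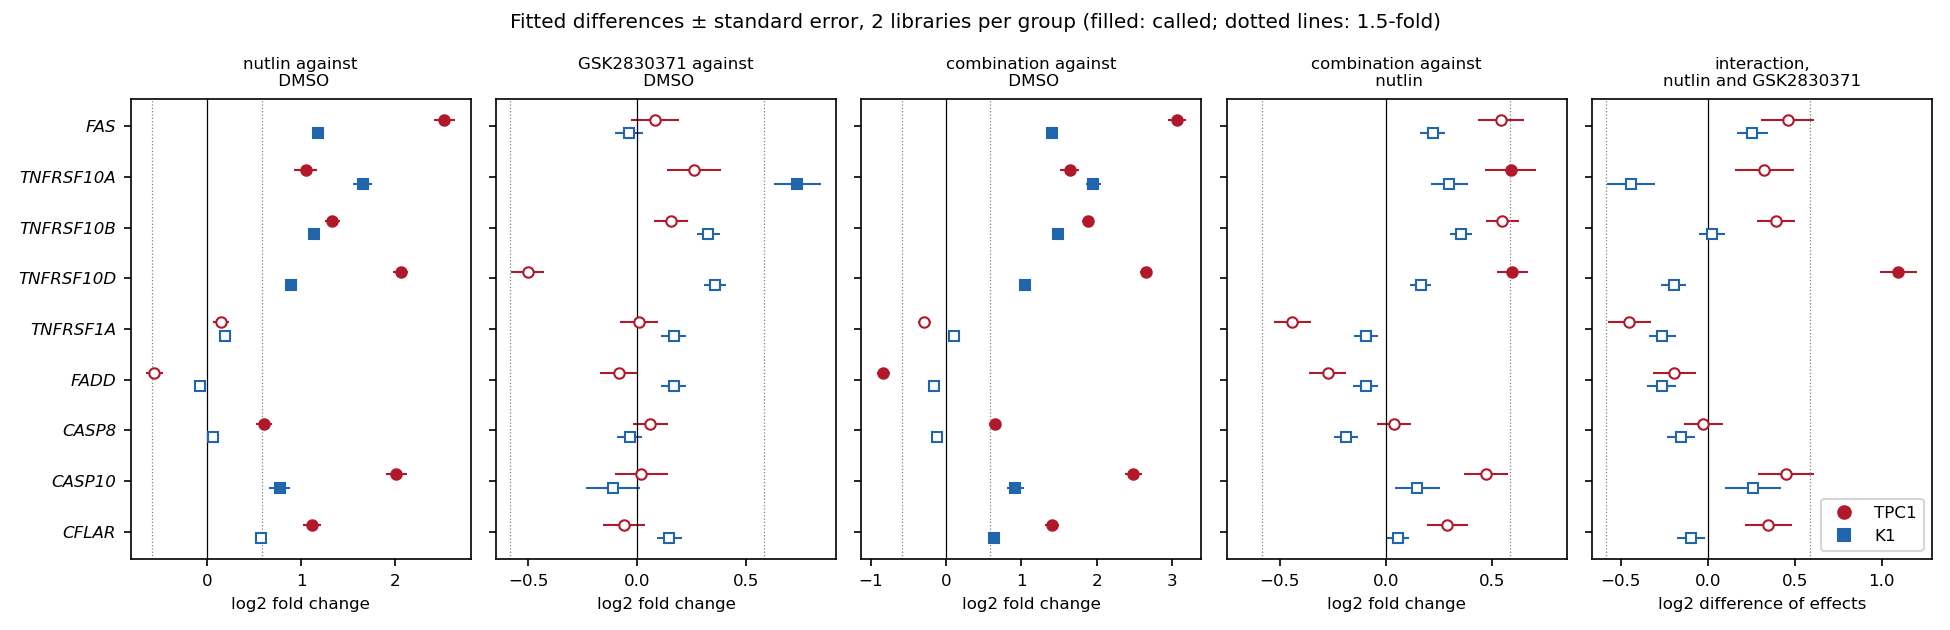
Fitted log2 differences ± SE (horizontal axis) of the 9 genes other than TNFRSF10C in 5 comparisons, for TPC1 (red circles) and K1 (blue squares), 2 libraries per group. Filled symbols were called, and dotted lines mark 1.5-fold. FAS in TPC1 sits at 2.53 under nutlin and 3.07 in the combination, and TNFRSF10D is the single filled symbol of the interaction panel, at 1.10.

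Under GSK2830371 alone, no gene of the set was called in TPC1 and TNFRSF10A was called in K1. In TPC1 none of the 10 genes was called, where 1.4% of all genes were; 1 had an unadjusted p below 0.05 and DESeq2 called 0. That gene was TNFRSF10D, at 46.5 and 47.1 CPM against 66.6 and 65.9 CPM in DMSO, with a log2 fold change of -0.50 ± 0.0746 (edgeR quasi-likelihood, Benjamini-Hochberg adjusted p = 0.016). The treated libraries both lay below the DMSO libraries. FAS was at 20.3 and 21.8 CPM, with a log2 fold change of 0.08 ± 0.112 (adjusted p = 0.72).

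In K1, 1 of 9 genes was called under GSK2830371, where 2.23% of all genes were. TNFRSF10A rose from 5.90 and 5.69 CPM to 10.5 and 8.78 CPM, a log2 fold change of 0.74 ± 0.106 (edgeR quasi-likelihood, Benjamini-Hochberg adjusted p = 7.2e-04). TNFRSF10B, at 158 and 164 CPM against 131 and 126 CPM, had a log2 fold change of 0.33 ± 0.0516 (adjusted p = 0.0011), and TNFRSF10D, at 389 and 387 CPM against 297 and 309 CPM, had one of 0.36 ± 0.0495 (adjusted p = 6.1e-04). Both lay above DMSO in every library without reaching the fold threshold. By adjusted p alone 3 of the 9 genes passed, where 19.2% of all genes did. FAS in K1 was at 45.1 and 42.6 CPM, with a log2 fold change of -0.04 ± 0.0645 (adjusted p = 0.75).

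TNFRSF10D thus lay below DMSO in TPC1 and above it in K1 under GSK2830371. The K1 minus TPC1 difference of the 2 effects was 0.86 ± 0.0965 (edgeR quasi-likelihood, Benjamini-Hochberg adjusted p = 0.0014), and it was the one gene of the 10 called in that comparison, where 2.18% of 16738 genes were called. For TNFRSF10A the corresponding difference was 0.48 ± 0.159 (adjusted p = 0.097) and for TNFRSF10B 0.18 ± 0.0924 (adjusted p = 0.3).

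With both compounds, the same receptors and CASP10 had larger fold changes over DMSO than with nutlin alone. In TPC1, 7 of 10 genes were called higher and 1, FADD, lower, where 22.5% of all genes were called higher and 21.7% lower. In K1, 6 of 9 were called higher and none lower, where 7.62% of all genes were called higher and 8.09% lower, and these 6 (FAS, TNFRSF10A, TNFRSF10B, TNFRSF10D, CASP10 and CFLAR) were all called in TPC1. The TPC1 set added CASP8. Their median log2 fold changes were 1.52 (TPC1) and 0.92 (K1). Against GSK2830371 alone, the combination had 6 genes higher and 1 lower in TPC1, with 38.5% of all genes called, and 5 higher in K1, with 13.1%. In TPC1 CASP8 stopped just short of the fold threshold in that comparison (0.582). It was called in 10 of 18 alternatives, DESeq2 among them (0.605), and not in the other 8.

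In the combination FAS reached 152 and 182 CPM in TPC1, a log2 fold change over DMSO of 3.07 ± 0.116 (edgeR quasi-likelihood, Benjamini-Hochberg adjusted p = 3.9e-08), and 117 and 121 CPM in K1, with 1.40 ± 0.0625 (adjusted p = 1.2e-09). TNFRSF10B reached 1054 and 991 CPM in TPC1, with 1.88 ± 0.0803 (adjusted p = 8.5e-08), and 354 and 364 CPM in K1, with 1.49 ± 0.0519 (adjusted p = 1.3e-10). Both genes were at their highest in the combination in both lines, and no combination library overlapped another treatment. TNFRSF10D reached 397 and 436 CPM in TPC1, with 2.65 ± 0.0778 (adjusted p = 8.6e-09), and 634 and 623 CPM in K1, with 1.05 ± 0.0498 (adjusted p = 2.1e-09).

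TNFRSF10A reached 102 and 95.1 CPM in TPC1, a log2 fold change over DMSO of 1.64 ± 0.124 (edgeR quasi-likelihood, Benjamini-Hochberg adjusted p = 3.4e-06), and 23.0 and 21.9 CPM in K1, with 1.95 ± 0.0976 (adjusted p = 3.4e-09). CASP10 reached 23.0 and 21.3 CPM in TPC1, with 2.49 ± 0.115 (adjusted p = 1.4e-07), and 10.6 and 11.1 CPM in K1, with 0.92 ± 0.111 (adjusted p = 1.5e-05). CFLAR reached 128 and 126 CPM in TPC1, with 1.41 ± 0.0973 (adjusted p = 1.9e-06), and 68.4 and 69.8 CPM in K1, with 0.63 ± 0.056 (adjusted p = 8.4e-07). The inhibitor gene and the receptor genes were thus high in the same libraries. The CFLAR call in K1 was lost when the fit was corrected for the GC content and length of transcripts (0.55).

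CASP8 stood at 84.0 and 91.7 CPM in the TPC1 combination libraries, a log2 fold change over DMSO of 0.64 ± 0.0804 (edgeR quasi-likelihood, Benjamini-Hochberg adjusted p = 9.5e-05), which missed the fold threshold without the combination library numbered 3 (0.58). In K1 it stood at 48.5 and 47.6 CPM, with -0.12 ± 0.0565 (adjusted p = 0.096). FADD fell in TPC1 to 29.3 and 32.7 CPM, with -0.83 ± 0.0883 (adjusted p = 3.1e-05), and stood at 57.9 and 53.6 CPM in K1, with -0.17 ± 0.0582 (adjusted p = 0.034, under the fold threshold). TNFRSF1A was at 188 and 212 CPM in TPC1, with -0.29 ± 0.0873 (adjusted p = 0.015), and at 184 and 187 CPM in K1, with 0.10 ± 0.0565 (adjusted p = 0.16).

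The step from nutlin to the combination was smaller for this set than the step from DMSO to nutlin. Its median log2 fold change was 0.38 in TPC1, where that of all genes was 0.0127. In K1 the median was 0.148, where that of all genes was 0.0044. In TPC1, 2 of 10 genes were called, both higher, where 6.46% of all genes were called higher and 5.66% lower. TNFRSF10A had a log2 fold change of 0.59 ± 0.12 (edgeR quasi-likelihood, Benjamini-Hochberg adjusted p = 0.0075) and TNFRSF10D one of 0.59 ± 0.0731 (adjusted p = 6.5e-04), so both lay barely past the fold threshold. Neither was called with library size alone as the scaling (0.57 for both) or in a fit of the 2 groups alone (0.58 for both). TNFRSF10A was not called without the nutlin library numbered 3 (0.54, adjusted p = 0.068), the combination library numbered 1 (0.54) or the DMSO library numbered 3 (0.58), and TNFRSF10D not without the combination library numbered 3 (0.53).

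Just under that threshold stood TNFRSF10B, with 0.55 ± 0.0779 (edgeR quasi-likelihood, Benjamini-Hochberg adjusted p = 0.0013), FAS, with 0.54 ± 0.106 (adjusted p = 0.0062), and CASP10, with 0.47 ± 0.104 (adjusted p = 0.01). TNFRSF10B was called without the combination library numbered 3 (0.59), and FAS without the nutlin library numbered 3 (0.63) or the combination library numbered 1 (0.67). TNFRSF1A had -0.44 ± 0.0874 (adjusted p = 0.0065) and FADD -0.28 ± 0.0886 (adjusted p = 0.049). By adjusted p alone 7 of the 10 genes passed, where 26.1% of all genes did. CFLAR, with 0.29 ± 0.0951 (adjusted p = 0.053), and CASP8, with 0.04 ± 0.0799 (adjusted p = 0.78), did not.

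In K1 none of the 9 genes was called between the combination and nutlin, where 2.68% of all genes were; 5 had an unadjusted p below 0.05 in edgeR's quasi-likelihood test, DESeq2 called 0, and by Benjamini-Hochberg adjusted p alone 5 passed, where 12.4% of all genes did. These were TNFRSF10B with a log2 fold change of 0.35, TNFRSF10A with 0.30, FAS with 0.22, TNFRSF10D with 0.16 and CASP8 with -0.19. The K1 minus TPC1 difference in this step was called for none of the 10 genes, where 5.11% of all genes were called; 5 had an unadjusted p below 0.05 and DESeq2 called 0. It was widest, among genes above the floor of 3 reads, for TNFRSF10D, at -0.42 ± 0.0948 (adjusted p = 0.011).

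The interaction asks whether the combination differed from the sum, on the log2 scale, of the effects of its parts. In TPC1, 1 of 10 genes was called, where 6.32% of all genes were. It was TNFRSF10D, with 1.10 ± 0.104 (edgeR quasi-likelihood, Benjamini-Hochberg adjusted p = 0.0014), whose level was below DMSO with GSK2830371 alone and above nutlin when the compounds were joined. TNFRSF10B had an interaction of 0.39 ± 0.11 (adjusted p = 0.059), FAS one of 0.46 ± 0.154 (adjusted p = 0.1) and TNFRSF1A one of -0.45 ± 0.123 (adjusted p = 0.056). In K1 none of 9 was called, where 2.44% of all genes were; 5 had an unadjusted p below 0.05 and DESeq2 called 0. The K1 values ran from -0.44 for TNFRSF10A to 0.26 for CASP10.

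FAS, TNFRSF10D and CASP10 responded less in the K1 cultures whenever nutlin was present, where line and medium differ together. For nutlin against DMSO, these 3 of 10 genes were called, all lower in K1, where 19.2% of all genes differed between the lines in either direction. For the combination against DMSO, 6 of 10 were called, where 25.7% of all genes were. These were FAS with a K1 minus TPC1 difference of -1.69, TNFRSF10D with -1.63, CASP10 with -1.59, CFLAR with -0.81, CASP8 with -0.79 and FADD with 0.64. The FADD call was lost without the TPC1 DMSO library numbered 3 (0.54), the TPC1 combination library numbered 1 (0.56) or K1 combination replicate 1 (0.55). TNFRSF10A and TNFRSF10B, the signalling TRAIL receptors, were not called in either, with 0.28 ± 0.152 and -0.42 ± 0.0921 for the combination (edgeR quasi-likelihood, Benjamini-Hochberg adjusted p = 0.16 and 0.0016).

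**Figure D3:**
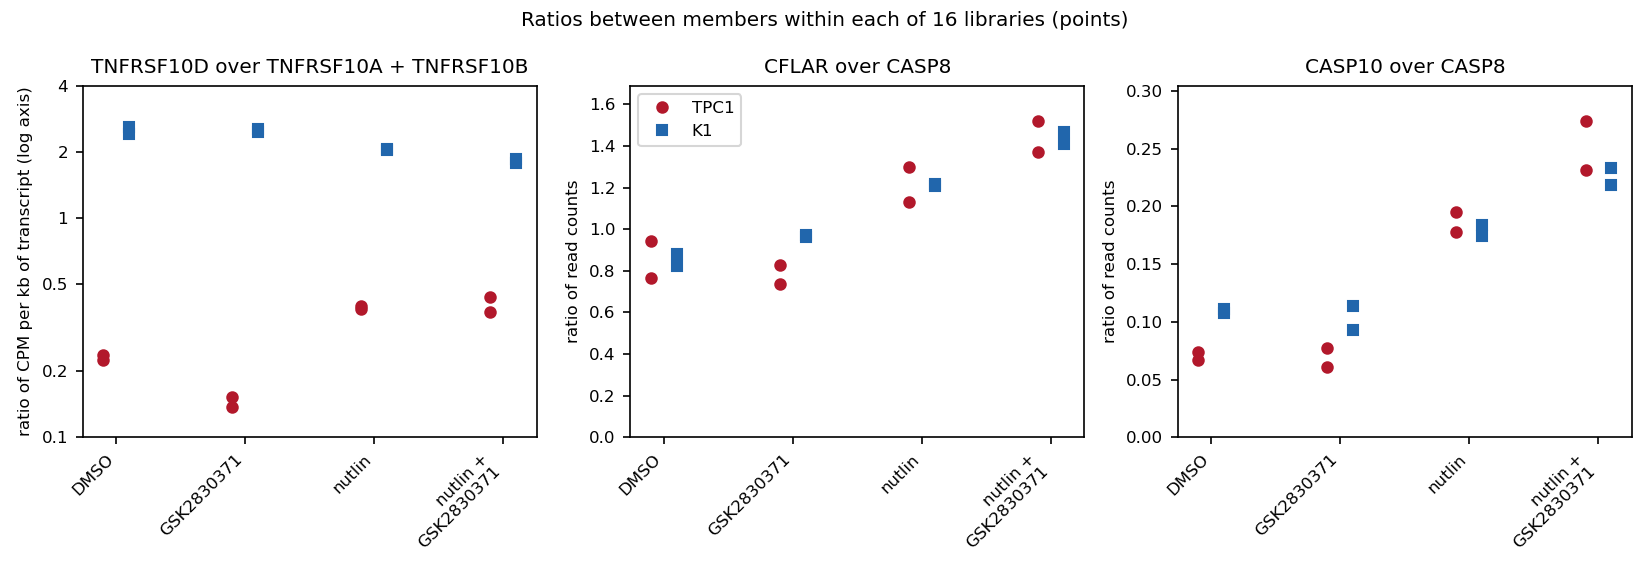
Ratios within each library (points) of the decoy TNFRSF10D to TNFRSF10A plus TNFRSF10B in CPM per kb (log axis), and of CFLAR and CASP10 to CASP8 in read counts, for TPC1 (red circles) and K1 (blue squares). The decoy ratio is below 0.5 in every TPC1 library and above 1.7 in every K1 library. CFLAR over CASP8 is higher in every library with nutlin than in those without it. Read count ratios are not divided by transcript length, so their size does not compare transcript numbers.

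The balance between the decoy and the signalling TRAIL receptors set the lines apart. The ratio of TNFRSF10D to TNFRSF10A plus TNFRSF10B, each in CPM per kb of transcript, was 0.224 and 0.237 in TPC1 DMSO and 2.41 and 2.60 in K1 DMSO. In TPC1 the ratio was 0.138 and 0.152 with GSK2830371, 0.385 and 0.398 with nutlin, and 0.372 and 0.435 with the combination. In K1 it was 2.54 and 2.48 with GSK2830371, 2.05 and 2.06 with nutlin, and 1.85 and 1.78 with the combination. The nutlin libraries thus lay above DMSO in TPC1 and below DMSO in K1. The ratios were not tested.

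CFLAR reads over CASP8 reads were higher with nutlin, alone or in the combination, than with DMSO in every library of both lines. Reads were not divided here by transcript length, which is 14612 bases for CFLAR, 2659 for CASP8 and 5668 for CASP10. A ratio of 1 is therefore not equal abundance, and only the change between treatments is read. The ratio was 0.942 and 0.766 in TPC1 DMSO, 1.30 and 1.13 with nutlin, and 1.52 and 1.37 with the combination. In K1 it was 0.825 and 0.881 in DMSO, 1.22 and 1.21 with nutlin, and 1.41 and 1.47 with the combination. With GSK2830371 alone it was 0.829 and 0.739 in TPC1 and 0.973 and 0.962 in K1. The combination libraries were above the nutlin libraries in both lines, and in K1 the GSK2830371 libraries were above DMSO. CASP10 over CASP8 reads gave 0.0741 and 0.0667 in TPC1 DMSO against 0.274 and 0.232 in the TPC1 combination. The corresponding K1 ratios were 0.108 and 0.111 against 0.219 and 0.233.

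DDIT3, which encodes CHOP and is a known activator of TNFRSF10B, was set beside that receptor. In TPC1 its mean level was 4.42 CPM in DMSO, 12.8 with GSK2830371, 13.7 with nutlin and 182 ± 39.9 (SD, n = 2) with the combination. The DDIT3 log2 fold change from nutlin to the combination was 3.72 ± 0.154 (edgeR quasi-likelihood, Benjamini-Hochberg adjusted p = 2.2e-06), while TNFRSF10B had 0.55, FAS 0.54 and TNFRSF10D 0.59 in the same libraries. Under GSK2830371 alone in TPC1, DDIT3 rose by 1.52 ± 0.158 (adjusted p = 0.0038) and TNFRSF10B had 0.15 ± 0.0779 (adjusted p = 0.3). From nutlin to the combination TNFRSF10B passed the adjusted p (0.0013) and stayed just under the fold threshold.

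In K1 DDIT3 was at 13.2 CPM in DMSO, 12.5 with GSK2830371, 14.0 with nutlin and 24.6 with the combination. Its log2 fold change was -0.08 ± 0.0909 under GSK2830371 (edgeR quasi-likelihood, Benjamini-Hochberg adjusted p = 0.59), where TNFRSF10B had 0.33, and 0.81 ± 0.0861 from nutlin to the combination (adjusted p = 1.0e-04), where TNFRSF10B had 0.35. The step from nutlin to the combination was smaller in K1 by 2.90 ± 0.177 for DDIT3 (K1 minus TPC1 -2.90, adjusted p = 1.2e-07), and the corresponding difference for TNFRSF10B was -0.19 ± 0.0917 (adjusted p = 0.25). Differences between genes were not tested. The DDIT3 values are RNA levels and do not measure CHOP protein, which the study reports as induced by the combination. Whether DDIT3 has a part in the TNFRSF10B levels was not tested.

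The p53 targets CDKN1A and MDM2 give the scale of the nutlin response. Under nutlin CDKN1A had a log2 fold change of 5.61 in TPC1 and 3.16 in K1, and MDM2 of 4.96 and 3.04, all called higher. FAS, at 2.53 and 1.18, shared the order of the lines with both targets, and TNFRSF10A, at 1.05 and 1.66, did not. From nutlin to the combination CDKN1A rose by 0.87 in TPC1 and 0.60 in K1, and MDM2 had 0.25 (not called) in TPC1 and rose by 0.63 in K1.

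Across the 16 libraries, with log2 CPM centred within each line, the 5 genes most like FAS among 9837 genes were BLOC1S2, EDA2R, BTBD10, CCDC90B and SRSF8, with Pearson r from 0.994 to 0.996. EDA2R is itself a TNF receptor family member and p53 target. The 5 most like TNFRSF10B were ZFPM1, MZF1, PHLDB3, TSKU and ASTN2, with r from 0.985 to 0.993. Within the set, r was 0.962 between FAS and TNFRSF10B and 0.87 between FAS and TNFRSF10A. These libraries share their treatments, so any gene that follows nutlin scores high, and the values describe likeness alone.

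The rest of the pathway was read from 38 further genes of ligands, other receptors, adapters and executioners, of which 34 were tested in TPC1 and 36 in K1. In TPC1 10 rose and 8 fell under nutlin and 11 rose and 9 fell with the combination, with a median log2 fold change of 0.12 and -0.00894. In K1 2 rose and 2 fell under nutlin, and 2 rose and 4 fell with the combination. GSK2830371 alone lowered 1 in TPC1 (TNFRSF25, -0.77 ± 0.165, edgeR quasi-likelihood, Benjamini-Hochberg adjusted p = 0.041) and none was called in K1. For comparison, 17.5% of all genes were higher and 18% lower under nutlin in TPC1, 22.5% and 21.7% with the combination, and in K1 3.84% and 5.43% under nutlin and 7.62% and 8.09% with the combination.

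The ligands were scarce. FASLG, which encodes the ligand of FAS, stayed below 0.1 CPM in every library, including those in which FAS rose. TNFSF10 (TRAIL) fell in TPC1 from a mean of 1.36 CPM to 0.334 CPM under nutlin (log2 -1.93 ± 0.374, edgeR quasi-likelihood, Benjamini-Hochberg adjusted p = 0.0019) and to 0.171 CPM with the combination. In K1 TNFSF10 was at 0.18 to 0.413 CPM on average. TNF fell in K1 from 3.22 to 1.92 CPM under nutlin (log2 -0.75 ± 0.175, adjusted p = 0.0051) and was at most 0.15 CPM on average in TPC1.

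Of the other receptors, EDA2R rose in both lines under nutlin, from 14.0 to 91.1 CPM in TPC1 (log2 2.70 ± 0.0833) and from 22.4 to 60.9 CPM in K1 (log2 1.45 ± 0.0646). NGFR rose in TPC1 from 0.678 CPM in nutlin to 4.65 CPM in the combination (log2 2.84 ± 0.266). TNFRSF21 (DR6) fell under nutlin in TPC1 from 26.8 to 13.8 CPM (log2 -0.96 ± 0.0777), and TNFRSF11B, another decoy that binds TRAIL, rose from 5.76 to 9.16 CPM (log2 0.67 ± 0.221) and was back at 5.48 CPM in the combination. Both directions occurred among these receptors.

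Among adapters, PIDD1 and CRADD, which form the platform that activates CASP2, rose under nutlin in TPC1 (log2 1.39 ± 0.0734 and 1.10 ± 0.14), while CASP2 itself fell in TPC1 (log2 -0.79 ± 0.078) and in K1 (log2 -0.75 ± 0.0731). TRAF2, an adapter of TNF receptor signalling, fell in TPC1 from 68.7 to 24.0 CPM (log2 -1.52 ± 0.082), and MLKL, the effector of necroptosis, fell from 10.7 to 4.26 CPM (log2 -1.34 ± 0.12). BIRC3, an inhibitor of apoptosis, and MLKL were lower in the combination than in nutlin in TPC1 (log2 -0.74 ± 0.161 and -0.94 ± 0.135). PIDD1 had a called interaction of 0.66 ± 0.103 in TPC1 and BIRC3 one of 1.40 ± 0.362 in K1. BIRC3 was low in K1, at a mean of 1.86 CPM in DMSO, 1.1 with GSK2830371 and 1.96 with the combination. Its combination level was thus near that of DMSO.

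Of BID and the executioner genes, APAF1, the core of the apoptosome, rose under nutlin in TPC1 from a mean of 38.0 CPM (log2 1.40 ± 0.111) and in K1 from 22.9 to 35.3 CPM (log2 0.62 ± 0.0694). CASP6 rose in TPC1 from 20.6 to 36.9 CPM (log2 0.84 ± 0.107). BID, the link from caspase-8 to mitochondria, fell there from 55.3 to 28.9 CPM (log2 -0.94 ± 0.115). In TPC1 the receptors FAS and TNFRSF10B thus rose in libraries where FADD was lower and BID fell.

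**Figure D4:**
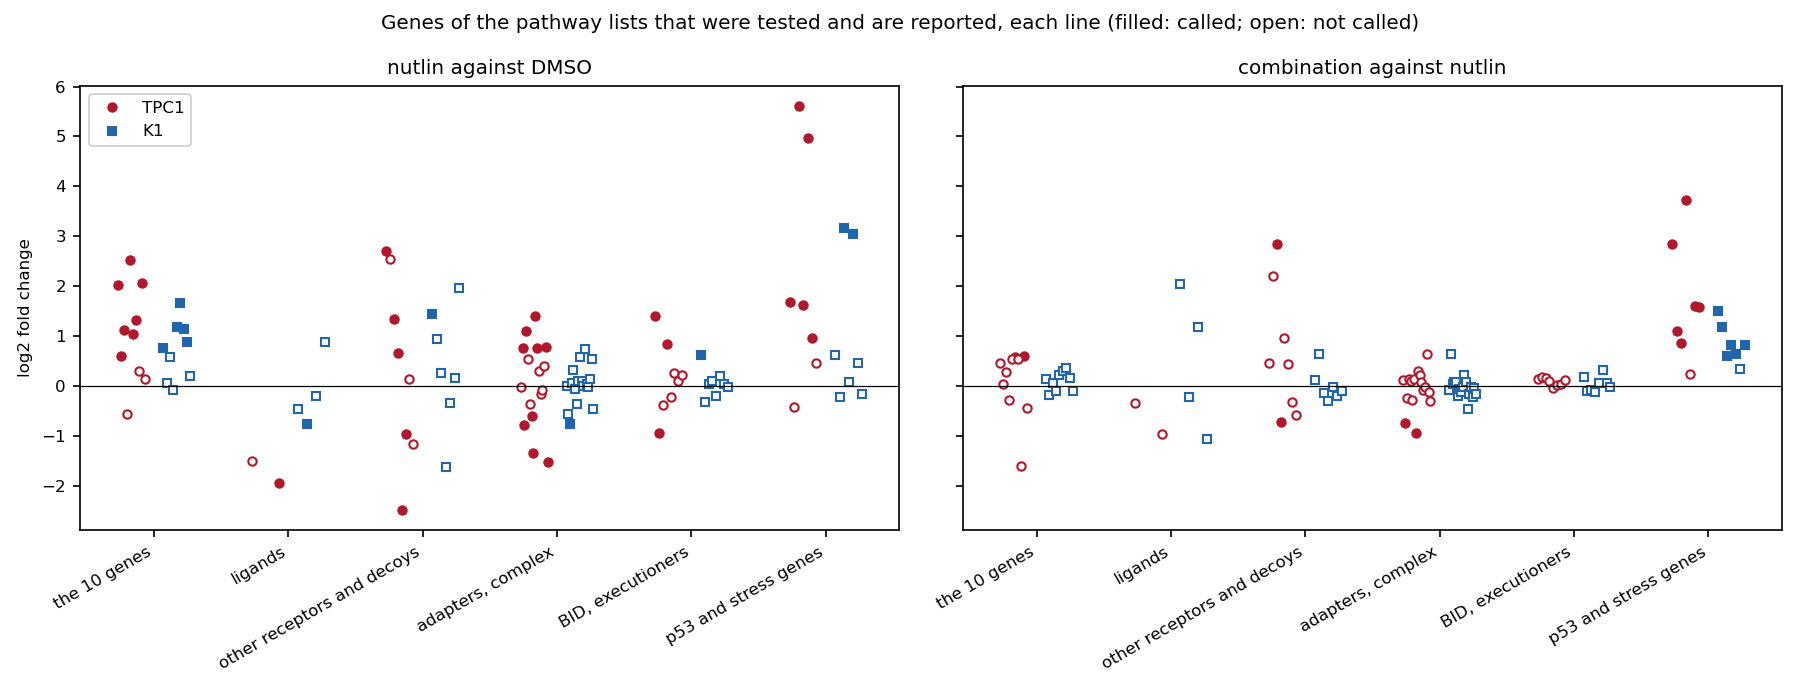
Log2 fold changes (vertical axis) of the tested and reported genes of each list under nutlin against DMSO (left) and the combination against nutlin (right), in TPC1 (red circles) and K1 (blue squares), filled where called. On the left most of the 10 genes lie above 0, with FAS at 2.53 in TPC1, while the adapter list lies on both sides, from PIDD1 at 1.39 to TRAF2 at -1.52.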

How the data were processed

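RNA-seq libraries of TPC1 and K1 cells were compared by treatment, 2 per group. According to the submitters' processing notes and the study's methods, the authors aligned single-end reads to hg19 with TopHat2 2.0.13, dropped reads of mapping quality below 10 and counted reads per gene with HTSeq 0.6.1, using strand. The deposited values are raw counts per gene, with replicates not pooled. Dropping such reads removes those shared by near-identical paralogs, so the TNFRSF10 genes could lose reads in similar stretches.

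Counts were tested with edgeR 4.0.16 (quasi-likelihood, TMM scaling, genes above 0.1 CPM in at least 2 libraries), all 8 libraries of a line in 1 fit, and the lines were compared in a fit of all 16. Benjamini-Hochberg adjustment ran over all genes tested (15273 in TPC1, 15900 in K1, 16738 jointly). SE is the log2 fold change divided by the root of F. The other tools were R 4.3.3, limma 3.58.1, DESeq2 1.42.0, Python 3.11.15 and matplotlib 3.10.9, and the fits were tested on simulated data. Transcript lengths, positions and the FAS sequence came from GENCODE annotation and the genome of GRCh37, the same build as hg19.

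The 10 genes, the further lists and the tests were chosen with earlier results of these data known. All 10 genes were tested in every comparison, except TNFRSF10C within K1, and some of their values are not given. From each further list up to 5 called genes could be named per comparison, those with the largest changes. At least 1 of the groups had to average 1 CPM or more. The p53 and stress genes were fixed by name. TPC1 columns are numbered 1 and 3 where the labels number 1 and 2, so they were grouped by treatment and are named by column number. Same-numbered TPC1 libraries deviated together (r of 0.495 to 0.697 between treatments over 12308 genes) and were treated as paired by number in the alternative with a replicate block; K1 libraries did not (r from -0.357 to 0.376). The alternatives were DESeq2 and its size factors, library size alone, other filters, the block, GC content and length, fewer groups, no fold threshold and leaving out each library. Some genes of the further lists are not reported here.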

Additional observations from a re-analysis of the deposited data

Results flagged for a closer look

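The 10 results below were picked out because the effect of a treatment differed between the lines by the joint test of the difference (edgeR quasi-likelihood, adjusted p below 0.05 over all genes, and above 1.5-fold). Values are K1 minus TPC1 on the log2 scale. Under nutlin FAS differed by -1.37, TNFRSF10D by -1.20 and CASP10 by -1.28. With the combination against DMSO FAS differed by -1.69, TNFRSF10D by -1.63, CASP10 by -1.59, CFLAR by -0.81, CASP8 by -0.79 and FADD by 0.64. Under GSK2830371 TNFRSF10D differed by 0.86, with opposite signs in the lines. These comparisons share their DMSO libraries, so they are not separate pieces of evidence. Line, medium and set of libraries cannot be told apart in them.

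FAS and TNFRSF10D were higher in K1 than in TPC1 in vehicle, and their fold responses to nutlin were smaller there, while TNFRSF10A was lower in K1 in vehicle with a log2 response of 1.66 against 1.05. TNFRSF10B was lower in K1 in vehicle too, with a log2 response of 1.13 against 1.33 (difference -0.23, not called). CDKN1A and MDM2 also responded less in K1, with differences of -2.48 and -1.95. CFLAR and CASP8 were not called between the lines in vehicle (-0.11 and -0.12). Their responses to the combination were still smaller in K1 (-0.81 and -0.79). CASP10 was 0.52 higher in K1 in vehicle, not called, and responded less to nutlin there (-1.28). A vehicle difference and a response difference share their DMSO libraries, so they are not independent. Whether the vehicle level has a part in these differences was not tested.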

How the results depend on the processing

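Over the 10 genes' values under all alternatives, 3082 kept their call, 21 lost it and 67 gained it, and no called value changed sign. The sign changed in 43 values that were not called, 9 of them of TNFRSF10C and 34 of other genes whose main log2 value was at most 0.126 in size. Most changes lay near the fold threshold. Without that threshold the genes called in TPC1 became 1 under GSK2830371, where 3.5% of all genes passed, and 7 for the combination against nutlin (26.1%). In K1 they became 3 (19.2%) and 5 (12.4%) for the same comparisons. Between the lines they became 7 of 10 for nutlin, where 31.2% of all genes passed. For the combination against nutlin they became 1 of 10 between the lines, near the 8.75% of all genes. For the combination against nutlin in TPC1 the 2 calls became 0 with library size alone, 0 in a fit of the compared groups and 1 without a filter on low counts, and 1 to 2 when libraries were left out in turn. Between the lines the 3 calls under nutlin became 5 without the filter, and 3 to 5 when libraries were left out. The cause was not tested.

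The replicate block changed no count of called genes: in TPC1 it gave 7 under nutlin, 8 and 2 for the combination against DMSO and nutlin, and in K1 5, 6 and 0. Leaving out libraries gave 7 for nutlin and 7 to 8 for the combination against DMSO in TPC1, 5 to 6 and 6 in K1, and 4 to 6 for the DMSO levels of the lines. Leaving out 1 library of a pair leaves a lone library, whose spread is then taken from the remaining groups. With 2 libraries per group, changes near 1.5-fold and genes of few reads such as TNFRSF10C are the limit of these data.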
